A study of Mus musculus with 86 samples.

Results

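Small RNA without piRNA enrichment was compared between *Btbd18* knockout and heterozygous mouse testes at postnatal day 14 (P14). The comparison holds 4 of the 86 samples of the series, which were chosen by age, genotype and kind of library alone: 2 heterozygous libraries (heterozygotes 1 and 2) and 2 homozygous knockout libraries (knockouts 1 and 2). All animals were C57BL/6 (B6) X 129/SvJ hybrids, whole testes were used, and the labels name no treatment. Total RNA was extracted with TRI Reagent, and NEBNext Multiplex Small RNA libraries were size-selected. Heterozygotes served as the controls, so every animal carried at least 1 mutant allele, and wild-type testes are not part of the comparison. The labels do not say which part of *Btbd18* was removed, nor whether the 2 libraries of a group were made from different animals. The variation behind the p-values may therefore be technical. It was estimated over all 14 small RNA libraries of P10, P14 and P18, not from these 4 alone.

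PIWI-interacting RNAs (piRNAs) are small RNAs of the germ line that guide PIWI proteins, and they are cut from long single-stranded precursor transcripts. In the mouse testis, pre-pachytene piRNAs come largely from the transcripts of protein-coding genes, whereas pachytene piRNAs come mainly from long intergenic loci whose transcription starts as spermatocytes enter the pachytene stage of meiosis under the transcription factor A-MYB (*Mybl1*). BTBD18 is a nuclear protein of spermatocytes known for its role at pachytene piRNA loci. At P14 the first wave of spermatocytes is entering the pachytene stage, so the age lies where these small RNAs first accumulate.

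The table counts reads over 24276 features. By their names, 100 are intergenic piRNA loci (chromosome, band and a number, as in 17-qA3.3-26735), 114 are genic piRNA loci named after a gene, 1121 are miRNA genes and 119 are snoRNA genes. The library depths were 5.007 and 9.885 M counts (M, mega) in the heterozygotes and 4.998 and 5.614 M in the knockouts. A low-count filter left 10405 features, which were tested with edgeR's quasi-likelihood test across all 14 small RNA libraries of P10, P14 and P18. Adjusted p-values are Benjamini-Hochberg values over all 10405, and a feature was said to rise or fall in the knockout when its adjusted p was below 0.05. Levels are CPM (counts per mega counts) after TMM scaling, which aligns the bulk of the features between libraries. The scaled depth of heterozygote 2 was 0.523 times its count, so its CPM exceed its shares of counts.

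The 2 heterozygous libraries differed greatly in composition, and this touches every result that follows. Intergenic piRNA loci took 22.0% of the counts of heterozygote 1 (95% Clopper-Pearson interval 21.97 to 22.05%) and 75.5% of those of heterozygote 2 (75.50 to 75.55%). They took 2.39% in knockout 1 (2.376 to 2.403%) and 4.65% in knockout 2 (4.632 to 4.667%), so both knockouts lay below both heterozygotes. These intervals cover counting error only. At P10 the share was 0.265 to 0.379% in all 4 libraries, and at P18 it was 53.6 to 60.9% in 3 heterozygotes and 8.51 to 23.9% in 3 knockouts. Heterozygote 1 of P14 thus lay between the heterozygotes of the ages before and after, and heterozygote 2 lay above those of P18. The log2 CPM of the tested features correlated at r = 0.877 between the heterozygotes and at 0.962 between the knockouts. Heterozygote 1 correlated at 0.920 with knockout 1, which is closer than with the other heterozygote. These correlations run across features, which are not independent replicates.

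**Figure D1:**
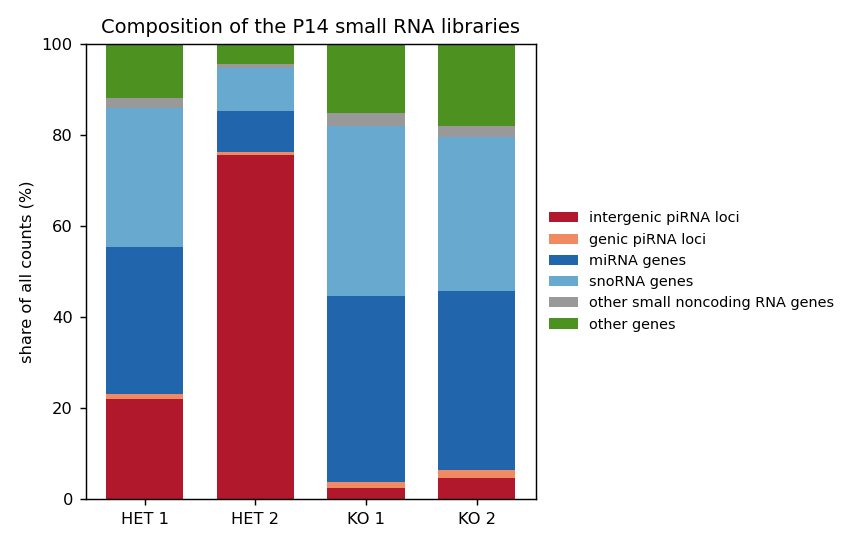
Share of all counts (%) taken by each class of feature in the 4 P14 libraries (HET, heterozygote; KO, knockout), 1 stacked bar per library. Intergenic piRNA loci take 22.0% and 75.5% in the heterozygotes and 2.39% and 4.65% in the knockouts, and miRNA genes take 9.02% in heterozygote 2 against 32.4 to 41.0% in the other 3.

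The rest of each library filled what the intergenic loci left. miRNA genes held 32.4%, 9.02%, 41.0% and 39.3% of counts in heterozygotes 1 and 2 and knockouts 1 and 2. snoRNA genes held 30.5%, 9.39%, 37.2% and 33.8% in the same order. Genic piRNA loci held at most 1.79% in any of the 4 libraries. A share of counts can move because another class moved, and TMM scaling was used for that reason.

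*Btbd18* itself (chromosome 2, 84659072 to 84668789, GRCm38) gave few small RNA counts, at 26 and 19 in the heterozygotes and 11 and 19 in the knockouts. Its level was 3.83 and 3.68 CPM in the heterozygotes and 1.35 and 1.65 CPM in the knockouts, a fall of 1.30 ± 0.32 on the log2 scale (SE; adjusted p = 0.0401). Both knockouts were the lower, but the call was lost without any 1 of the 4 libraries (adjusted p = 0.11, 0.053, 0.21 and 0.27 without heterozygote 1, heterozygote 2, knockout 1 and knockout 2). In poly(A) testis RNA of the same age, where *Btbd18* is better covered, its level was 18.4 and 18.2 CPM in the heterozygotes and 2.064 and 2.1002 CPM in the knockouts (log2 fold change -3.13, adjusted p = 2.90e-08).

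Across all classes, 143 features rose (1.37% of those tested) and 96 fell (0.923%), and the median log2 fold change of all tested features was -0.05. The 96 that fell were 55 intergenic loci, 1 genic locus, 6 miRNA genes and 34 other genes, while all 143 that rose belonged to the class of other genes, mostly protein-coding. Of all 239 calls (2.3% of those tested) 59.8% were rises, which became 94.4% with scaling by total counts and 13.0% with TMM on miRNA genes alone. These last shares are of 1287 and 54 calls. Scaling by total counts raised the log2 fold changes by a median of 1.07, and TMM on miRNA genes alone by 0.04. All 143 features that rose stayed above 0 under both scalings. They started at 0.91 or more, so such shifts could hardly have turned their sign. Fitted on the 4 P14 libraries alone, edgeR called no feature, so every call below uses the spread estimated over the 3 ages. In the fit of the 4 libraries, with its own low-count filter, 562 features had an unadjusted p below 0.05, against 1467 across ages. The P14 heterozygotes correlated less with each other (r = 0.877) than the knockouts did (0.962), so this shared spread may be too small for them. With 1 P14 library left out, its group holds 1 library and adds nothing to the spread. Calls kept or gained in that way are therefore not support.

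**Figure D2:**
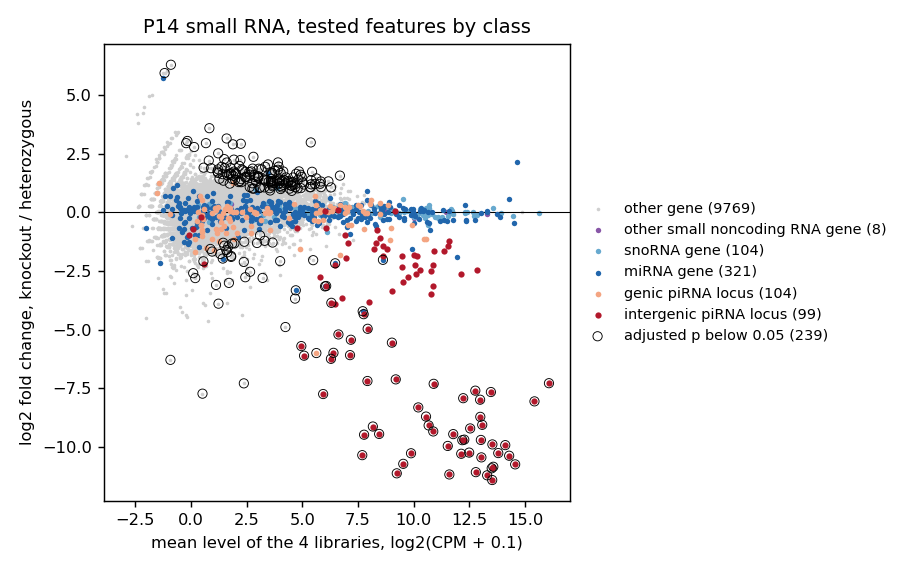
Log2 fold change (knockout over heterozygous) against the mean level of the 4 P14 libraries, log2(CPM + 0.1), for all 10405 tested features coloured by class; circles mark the 239 features with an adjusted p below 0.05. The intergenic piRNA loci spread down to a log2 fold change of -11.4, and most other features lie close to the 0 line.

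Intergenic piRNA loci showed the deepest change. Of 99 tested loci 55 fell and 0 rose, with a median log2 fold change of -5.44 over the 99. The remaining locus, 1-qE2.3-2, had 0 counts and was not tested. The 55 loci that fell had a median log2 fold change of -9.13. Their median level was 372 CPM in heterozygote 1, 10991 in heterozygote 2, 9.44 in knockout 1 and 9.57 in knockout 2. Thus the knockouts lay close together and far below both heterozygotes, which themselves differed. Over the mean of the knockouts, the median locus was 46.7-fold higher in heterozygote 1 and 1108-fold higher in heterozygote 2. In 47 of the 55 the groups did not overlap, against 17.9% of all tested features being lower in both knockouts. The 55 were chosen by p in these same libraries, which favours such separation. In bulk tissue, fewer cells of a type and less RNA per cell cannot be told apart.

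**Figure D3:**
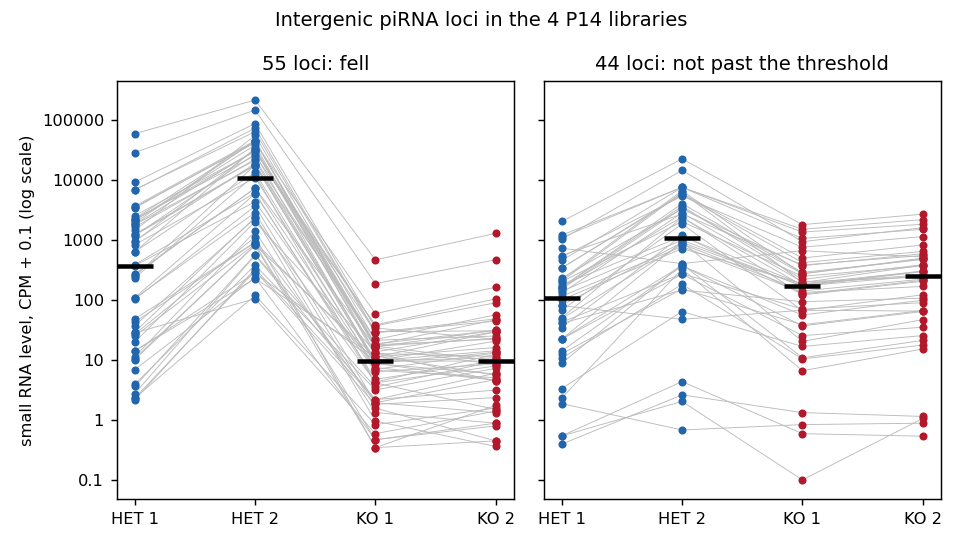
Level of each tested intergenic piRNA locus in the 4 P14 libraries (CPM + 0.1, log scale), with grey lines joining 1 locus and black bars at the medians, for the 55 loci that fell (left) and the 44 that did not pass the threshold (right). The medians on the left are 372, 10991, 9.44 and 9.57 CPM, and on the right heterozygote 1 has the lowest median.

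The most abundant of these sources was 17-qA3.3-26735, in band A3.3 of chromosome 17. It gave 59213 CPM in heterozygote 1, 215011 in heterozygote 2, 466 in knockout 1 and 1289.9 in knockout 2. Both knockouts were far below both heterozygotes (log2 fold change -7.29 ± 1.02, adjusted p = 3.31e-04). This locus alone supplied 8.03% and 11.2% of all counts in the heterozygotes and 0.0760% and 0.264% in the knockouts. Its neighbour in the same band, 17-qA3.3-27363, gave 28628, 146476, 187 and 468 CPM in the same order (-8.06 ± 1.07, adjusted p = 2.06e-04). Again the groups did not overlap, and knockout 2 was the higher knockout at both loci.

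Another 3 loci were among the 5 highest in heterozygotes. The locus 9-qC-31469 gave 9192 and 87152 CPM in the heterozygotes and 34.0 and 22.1 CPM in the knockouts (-10.75 ± 1.16, adjusted p = 6.87e-05). The locus 2-qE1-35981 gave 6769 and 73142 CPM against 29.4 and 30.5 CPM (-10.38 ± 1.20, adjusted p = 7.03e-05). The locus 14-qA3-19970 gave 6927 and 63799 CPM against 28.2 and 44.4 CPM (-9.93 ± 1.15, adjusted p = 7.03e-05). Together the 5 highest loci made up 68.2% and 40.6% of intergenic counts in heterozygotes 1 and 2, but 5.08% and 8.17% in knockouts 1 and 2. The pool of intergenic small RNA left in the knockouts therefore had a different makeup, and the top 5 stood for 0.121% and 0.380% of all their counts.

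Other loci with the smallest p-values spanned a wide range of levels. At 7-qD2-24830 the levels were 3645 and 45168 CPM in the heterozygotes and 16.9 and 9.57 CPM in the knockouts (log2 fold change -10.85 ± 1.18). At 15-qD1-17920 they were 2109 and 38174 CPM against 11.5 and 5.48 CPM (-11.21 ± 1.27). At 12-qE-7089 they were 1801 and 21214 CPM against 9.44 and 9.48 CPM (-10.25 ± 1.09). In these 3 the heterozygotes differed by more than 10-fold, yet the lower heterozygote still exceeded the higher knockout at each. The least abundant was 10-qC1-117, with 191 and 542 counts in the heterozygotes and 4 and 15 in the knockouts. Its levels of 28.1, 105, 0.491 and 1.30 CPM gave a log2 fold change of -6.12 ± 0.62 (adjusted p = 6.87e-05), one of the smallest p-values of the table. The other 5 loci of this kind were 15-qD1-4001, 7-qD1-16444, 12-qE-23911, 5-qG3-23659 and 6-qD1-2831, with log2 fold changes of -9.96, -11.08, -10.92, -9.90 and -8.32. Without heterozygote 2 the folds of these 12 loci, 3 of them described above, and of the chromosome 17 pair shrank. Examples were -6.06 at 17-qA3.3-26735 and -7.95 at 15-qD1-17920. Leaving out a heterozygote also takes the gap between the 2 heterozygotes out of the spread, so calls kept in that way are not support.

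The loci that fell lay on 16 chromosomes, and neighbours in a band often behaved alike. Of 28 bands with at least 2 tested loci, every tested locus fell in 13 (34 loci), some did in 7 and none did in 8 (21 loci). All 5 loci of band 10-qC1 fell, as did all 4 of 14-qA3, all 4 of 7-qD1 and all 3 of 5-qF. In contrast, 0 of 5 loci of 13-qA5 and 0 of 4 tested loci of chromosome 1 passed the threshold. Loci in a band may be parts of a shared transcription unit, so they are not independent.

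Leaving out a heterozygote changed which intergenic loci passed. Without heterozygote 1 the number that fell was 93, and without heterozygote 2 it was 44, with 11 that rose. The 44 were all among the 55. Of the 55, 49 kept a negative sign without heterozygote 2, so 6 loci rested on that library for their direction. The fall of 43 of the 55 held without knockout 1, and of 43 without knockout 2. In 8 of the 55 heterozygote 1 lay below a knockout. An example, chosen after its values were seen, was 10-qC1-875, with 2.21 and 306 CPM in the heterozygotes against 1.72 and 2.26 CPM in the knockouts. Just inside the threshold lay 11-qB1.3-590, with 10.5, 812, 11.0 and 29.2 CPM and an adjusted p of 0.0468, and just outside it lay 4-qD2.2-349, with 8.69, 394, 10.8 and 21.0 CPM and an adjusted p of 0.0534.

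The 44 loci that did not pass were not silent in the knockouts. Their median level was 108 and 1074 CPM in the heterozygotes and 171 and 247 CPM in the knockouts, and their median log2 fold change was -1.86 (range -3.92 to 0.11). At 31 of them heterozygote 1 lay below both knockouts, and at none were the groups apart. The highest was 8-qC5-8200, with 2033, 22477, 1801 and 2693 CPM (-2.45 ± 0.76, adjusted p = 0.115). Heterozygote 2 stood alone there, and heterozygote 1 lay among the knockouts. At 7-qB5-6255 the levels were 456, 7519, 1061 and 1505 CPM (-1.64 ± 0.77, adjusted p = 0.345), and without heterozygote 2 the value turned to 1.51 (adjusted p = 0.0485). The loci 6-qC3-6258, 6-qF3-3040 and 13-qB1-1517 had log2 fold changes of -2.61, -1.45 and -1.24 with adjusted p-values of 0.106, 0.295 and 0.387, which became 0.32, 0.55 and 0.64 without heterozygote 2. A locus singled out after its values were seen, 7-qD2-40, had a flat pattern in all 4 libraries, at 728, 404, 662 and 522 CPM (0.06 ± 0.37). It was also present at P10, at 1332 CPM on average in heterozygotes and 1290.0 CPM in knockouts.

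The gap between the heterozygotes was shared by the 2 small RNA preparations and not by the longer RNA. For the 55 loci that fell, the median ratio of heterozygote 2 to heterozygote 1 was 21.2 in the small RNA (range 3.63 to 209). Among the piRNA-enriched libraries of P14 heterozygotes it was 10.6, with number 2 higher at 55 of 55 loci. In poly(A) testis RNA it was 0.684, with number 2 higher at 4 of 55. The labels do not say that a number marks the same animal in the 3 kinds of library. For the 44 other loci the ratios were 14.1, 9.07 and 0.778 in the same order. The part of this gap in the results was not tested, beyond the values without each heterozygote.

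The same loci were also followed in the other 2 preparations of P14 testes, each fitted within its own table. In piRNA-enriched small RNA 29 of the 55 fell, where 0.319% of all tested features fell, and their median log2 fold change was -9.31. In testis RNA 44 of the 55 fell, where 0.906% of all tested features fell, with a median of -3.37. Of the 44 loci not called in small RNA, 0 of 43 tested fell in the enriched libraries (median -2.81) and 12 fell in testis RNA (median -0.74). At 17-qA3.3-26735 testis RNA gave 351 and 309.9 CPM in the heterozygotes and 5.29 and 1.59 CPM in the knockouts (-6.65 ± 0.26, adjusted p = 1.65e-12). The heterozygotes were close together there, and both lay far above the knockouts. In the enriched libraries that locus had a log2 fold change of -8.07 with an adjusted p of 0.208. At 10-qC1-1527, chosen after its values were seen, small RNA fell (11.2, 1385, 1.23 and 0.783 CPM, adjusted p = 0.00110) while testis RNA gave 1.03, 0.351, 0.718 and 0.652 CPM (-0.02 ± 0.45).

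Genic piRNA loci showed little change at P14. Of 104 tested loci (of 114) 1 fell and 0 rose, near the background of 0.923% that fell among all features, and their median log2 fold change was -0.05. DESeq2 called the same numbers, and in edgeR 16 loci had an unadjusted p below 0.05. The locus that fell was pi-1700016M24Rik, with 258 and 811 counts in the heterozygotes and 10 and 20 in the knockouts. Its level was 38.0 and 157 CPM against 1.23 and 1.74 CPM (-6.00 ± 0.65, adjusted p = 6.87e-05), so the groups lay far apart, as at the intergenic loci that fell. Without heterozygote 2 its log2 fold change was -4.62. In testis RNA it gave 12.8, 10.4, 1.97 and 1.74 CPM (-2.64 ± 0.32, adjusted p = 1.06e-04), and in enriched small RNA 84.0, 267, 0.643 and 1.12 CPM (-7.62, adjusted p = 0.00378).

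Among the most abundant genic loci were pi-Zfp382 and pi-Cbl. The first gave 757, 3369, 828 and 1022 CPM (-1.16 ± 0.53, adjusted p = 0.326). The second gave 457, 3453, 762 and 1014 CPM (-1.14 ± 0.61, adjusted p = 0.432). In both, heterozygote 2 was the high library, and heterozygote 1 was the lowest of the 4. After pi-1700016M24Rik the smallest p-values were those of pi-Tktl2 (1.26 ± 0.34, adjusted p = 0.0707), pi-Hic2 (-1.57 ± 0.49, 0.120), pi-Tmem194 (-1.15 ± 0.37, 0.128) and pi-Dnmt3a (-0.87 ± 0.28, 0.134). Without heterozygote 1 pi-Zfp382, pi-Cbl, pi-Hic2 and pi-Tmem194 passed the threshold (-1.78, -1.88, -2.24 and -1.33), while without heterozygote 2 they were at 0.31, 0.98, 0.06 and -0.85 and did not. Without heterozygote 2 pi-Tktl2 and pi-Dnmt3a passed it (1.66 and -1.04). With 1 heterozygote left out, 13 genic loci fell and 1 rose (without heterozygote 1), or 2 fell and 6 rose (without heterozygote 2).

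Among the miRNA genes 6 fell in the knockouts. miRNAs are short RNAs cut from hairpins by Drosha and Dicer, and bases 2 to 8, the seed, pair with target messages. The 6 were 1.87% of 321 tested miRNA genes (of 1121), beside 0.923% of all features that fell. None rose, and the median log2 fold change was -0.01. The table counts reads per hairpin gene, so the arms are not separated. Of the 6, 3 belong to the Mir34 and Mir449 family, which is abundant in meiotic and ciliated cells. Its mature 5p sequences are shown because those that fell share a seed, which is in capitals (RefSeq, GRCm38.p6).
mmu-miR-449a-5p: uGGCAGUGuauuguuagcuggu
mmu-miR-449c-5p: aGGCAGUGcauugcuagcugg
mmu-miR-34b-5p: aGGCAGUGuaauuagcugauugu
mmu-miR-34a-5p: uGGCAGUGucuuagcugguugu
For Mir34c the hairpin is shown, with the same 7 letters in capitals at bases 14 to 20 of 77.
Mir34c hairpin: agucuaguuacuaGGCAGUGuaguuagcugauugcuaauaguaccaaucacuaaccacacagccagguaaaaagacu
By symbol 295 of the 321 tested genes had a RefSeq entry, and among these entries the seed GGCAGUG occurred in mature sequences of 4 genes, Mir34a, Mir34b, Mir449a and Mir449c, of which 3 fell.

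The 2 family members on chromosome 13 fell most clearly. Mir449a (113037534 to 113037624, plus strand, GRCm38) had 620 and 3640 counts in the heterozygotes and 156 and 270 in the knockouts. Its levels were 91.3, 704, 19.1 and 23.5 CPM, a log2 fold change of -4.22 ± 0.65 (adjusted p = 9.99e-04). Mir449c (113035983 to 113036091, plus strand) had 145, 380, 31 and 63 counts, or 21.4, 73.5, 3.80 and 5.48 CPM (-3.33 ± 0.42, adjusted p = 1.15e-04). At both genes the lower heterozygote exceeded the higher knockout, and without heterozygote 2 the log2 fold changes were -2.08 and -2.16. Both hairpins lie within the RefSeq span of *Cdc20b* (113034975 to 113121019), a gene of multiciliated cells. *Cdc20b* had 8, 8, 7 and 6 counts in testis RNA, too few to read a change (log2 fold change -0.40, adjusted p = 0.898).

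The chromosome 9 members were less certain. Mir34b (51103562 to 51103645, minus strand) gave 230.2 and 1034 CPM in the heterozygotes and 159.8 and 150.0 CPM in the knockouts (-2.03 ± 0.51, adjusted p = 0.0427). Its neighbour Mir34c, named here after its values were seen, gave 2232, 10137, 1517 and 1736 CPM (-1.93 ± 0.58, adjusted p = 0.102). In both, heterozygote 2 was far above the rest and heterozygote 1 stood slightly above the knockouts. Both hairpins overlap the spans of *Btg4* and *Hoatz*, and *Btg4*, a factor of message decay, had 8, 11, 4 and 6 counts in testis RNA. Mir34a, also named after its values were seen, lies on chromosome 4 outside these clusters and gave 414, 329.6, 481 and 407 CPM (0.25 ± 0.34, adjusted p = 0.824). Over the 5 tested members of the 6 in the family list, 3 fell and the median was -2.03.

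The other 3 miRNA genes that fell were Mir184, Mir3085 and Mir375. The 3p sequences of the first pair are shown with the seed in capitals, because their seeds differ from that of the family and from each other.
mmu-miR-184-3p: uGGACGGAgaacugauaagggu
mmu-miR-3085-3p: uCUGGCUGcuauggcccccuc
Mir375, known from pancreatic islets and other secretory cells, gave 21.1 and 212 CPM in the heterozygotes and 9.44 and 16.4 CPM in the knockouts (-3.16 ± 0.67, adjusted p = 0.0157). Mir184 gave 45.7, 246, 27.8 and 36.4 CPM (-2.18 ± 0.54, adjusted p = 0.0385). Mir3085 was scarce, with 16, 31, 8 and 12 counts (-1.97 ± 0.43, adjusted p = 0.0172). At each of the 3, heterozygote 2 was the highest and heterozygote 1 stood between it and the knockouts. Without heterozygote 2 the log2 fold changes of Mir375, Mir184, Mir3085 and Mir34b were -0.67, -0.48, -1.18 and -0.55, and none was called (adjusted p = 0.38, 0.52, 0.18 and 0.42). They also lost the call without knockout 1 (0.15, 0.24, 0.092 and 0.19) and without knockout 2 (0.13, 0.28, 0.22 and 0.37).

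**Figure D4:**
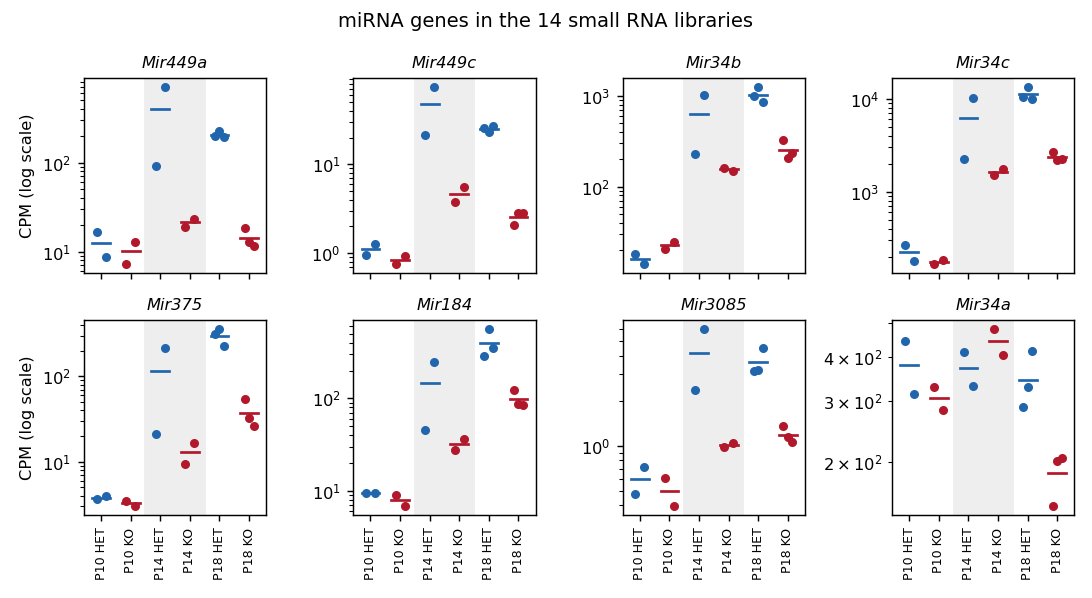
Levels (CPM, log scale, a separate axis per gene) of 8 miRNA genes in the 14 small RNA libraries by age and genotype, 1 point per library (blue heterozygous, red knockout), bars at the group means and P14 shaded. At P14 heterozygote 2 is the highest library for 7 of the 8 genes, for example 704 CPM for Mir449a against 19.1 and 23.5 CPM in the knockouts, while Mir34a lies between 329.6 and 481 CPM.

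The most abundant miRNAs did not pass the threshold. Mir881, of an X-linked cluster active in male germ cells, gave 30056, 23673, 20591 and 19074 CPM (-0.44 ± 0.57, adjusted p = 0.816). Mir99a, Mirlet7g, Mir10b, Mirlet7i and Mir30a had log2 fold changes between -0.19 and 0.05. At 4 miRNA genes 1 library stood at least 8-fold below the other 3, by a criterion of at least 3 on the log2 scale. Mir143, a miRNA of smooth muscle, had 1035 counts in heterozygote 1 against 95674, 371070 and 419488. Mir148a had 1613 in heterozygote 2 against 218822, 217180 and 246325. Mir199b had 5 counts in heterozygote 2 against 2237, 3321 and 2548, and Mir25 had 438 in knockout 2 against 11477, 6401 and 7684. A single library thus set the values of these genes, and Mir143 became called at 8.09 without heterozygote 2, Mir148a at 6.35 without heterozygote 1 and Mir25 at -5.22 without knockout 1.

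The miRNA lists other than that family held no call with all 4 libraries. The X-linked spermatocyte list (19 of 27 tested) had a median log2 fold change of -0.31, with 18 members below 0 and both knockouts below both heterozygotes at 13, where 17.9% of all features were lower in both knockouts. Its members of smallest p were Mir471 (1265, 1141, 937 and 790.0 CPM, adjusted p = 0.654) and Mir201 (174, 206, 153 and 141 CPM, adjusted p = 0.670). The imprinted cluster of chromosome 12 (38 of 52 tested) had a median of 0.31, with Mir540 at 0.88 ± 0.35 (adjusted p = 0.247) and Mir679 at 0.75 ± 0.41 (0.438). Both passed the threshold without heterozygote 1, at 1.77 each (adjusted p = 0.0044 and 0.024), and were at 0.43 and 0.26 without heterozygote 2. The miR-17-92 family clusters (13 of 15), let-7 (10 of 12), miRNAs of somatic testis cells (12 of 19), of blood, muscle and liver (4 of 13) and of epithelia and germ cells (10 of 10) had medians of -0.20, -0.03, 0.05, -0.26 and -0.01. In the last list Mir205, of epithelia, gave 5.74, 4.64, 8.22 and 24.5 CPM (1.66 ± 0.46, adjusted p = 0.0734), where knockout 2 was high. None of 14 genes of the miR-290 and miR-302 clusters had enough counts to be tested.

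With all 4 libraries no gene for a snoRNA, a guide of ribosomal RNA modification, passed the threshold. Of 104 tested 0 were called by edgeR or DESeq2 (2 had an unadjusted p below 0.05 in edgeR), and their median log2 fold change was 0.00. Snord2 gave 57838 and 45528 CPM in the heterozygotes and 57558 and 42174 CPM in the knockouts, a span within which the groups overlapped. Snord68 and Snord49a overlapped likewise (-0.14 and -0.03). Snora20 had the smallest p of this class (5.60, 13.5, 20.8 and 17.3 CPM, 1.02 ± 0.37, adjusted p = 0.185), and Snora70 followed (0.99 ± 0.40, 0.258). Without heterozygote 2 Snora20 was at 1.78 and passed the threshold (adjusted p = 0.0024), as did Scarna10 (-1.32, adjusted p = 0.018). Of 8 other small noncoding RNA genes, which include vault RNA, 0 were called (0 with an unadjusted p below 0.05).

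Among 9769 tested genes outside these classes, 143 rose and 34 fell. For most of them the counts are low fragments of longer RNA, and the files give neither read length nor strand, so piRNAs, breakdown products and reads of overlapping or antisense genes cannot be told apart. The genes that rose had a median of 31 and 30 counts in the heterozygotes and 106 and 180 in the knockouts. Their median level was 4.57 and 5.80 CPM in the heterozygotes and 13.0 and 15.7 CPM in the knockouts, and their median log2 fold change was 1.48 (range 0.91 to 6.29). In all 143 the groups did not overlap, and 140 changed more than 2-fold. Both largely follow from choosing the genes by p in these same libraries. Of all features, 18.3% were higher in both knockouts. Knockout 2 was the higher knockout at 131. Without knockout 2, 17 genes rose, all among the 143, and all 143 stayed above 0.

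The gene of smallest p among those that rose was *Perm1* (chromosome 4, 156203262 to 156221307), known as a muscle regulator of mitochondrial genes. It had 8 and 5 counts in the heterozygotes and 46 and 123 in the knockouts. Its levels of 1.18, 0.967, 5.64 and 10.7 CPM gave a log2 fold change of 2.92 ± 0.37 (adjusted p = 1.11e-04). Both knockouts were above both heterozygotes, and the log2 fold change without knockout 2 was 2.37. *Rimbp3* (chromosome 16, 17208135 to 17213982), which encodes a protein of the spermatid manchette, gave 0.295, 0.967, 4.05 and 6.44 CPM (3.14 ± 0.46, adjusted p = 7.88e-04). *Fasn*, the fatty acid synthase gene (chromosome 11, 120805958 to 120825166), gave 4.71, 3.48, 13.9 and 17.8 CPM (1.94 ± 0.31, adjusted p = 0.00119). Both knockouts were above both heterozygotes at these genes too.

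*Rbm15b*, an RNA-binding protein of the m6A methylation complex, gave 7.51, 5.61, 19.3 and 27.0 CPM (1.81 ± 0.28, adjusted p = 9.06e-04). *Maml1*, a Notch coactivator, gave 11.6, 13.9, 35.1 and 44.4 CPM (1.64 ± 0.25, adjusted p = 9.84e-04). The groups were apart at both, with knockout 2 the higher. The ubiquitin ligase gene *Rnf130*, the tau tubulin kinase gene *Ttbk1* and *Tsc22d2* rose by log2 1.77, 1.94 and 1.48. In testis RNA none of these 8 genes passed the threshold: *Fasn*, for example, gave 542, 510.0, 536 and 612 CPM and *Maml1* 64.3, 65.8, 68.2 and 71.4 CPM. The largest fitted changes were at genes with almost no counts in heterozygotes. *Scrt1* had 0 counts in both heterozygotes and 18 in the knockouts, at least 3.65-fold higher against a floor of 3 counts over the group, and *Hs6st3* had 0 against 14, at least 2.84-fold higher. *Scrt1* lost its call without heterozygote 1 or knockout 2 (adjusted p = 0.053 and 0.24), and *Hs6st3* without either heterozygote (0.099 and 0.071) or knockout 2 (0.36). C130050O18Rik had 3 against 62 counts.

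None of the 143 genes was called as rising in the other P14 tables. In piRNA-enriched small RNA 0 of 142 tested were called by edgeR, where 0 of all 12858 features rose (868 had an unadjusted p below 0.05), but 135 were higher in knockouts, and their median log2 fold change was 0.43 beside 0.00 over all features of that table. In testis RNA, where 0.0857% of all features rose, 0 of 141 rose and 3 fell, with a median of -0.04. Among those 3 was *Tdrd6*, which encodes a tudor protein of the chromatoid body. Its small RNA was 4.12, 7.16, 14.7 and 33.7 CPM (2.12 ± 0.36, adjusted p = 0.00255) and its testis RNA 35.5, 27.7, 11.8 and 6.01 CPM (-1.86 ± 0.28, adjusted p = 6.05e-04). Small RNA and longer RNA of this gene thus moved in opposite directions, and knockout 2 was the extreme library in both. *Clgn*, a chaperone gene of meiotic and later germ cells, was a second, with 5.74, 10.6, 24.4 and 29.6 CPM in small RNA (1.74 ± 0.31, adjusted p = 0.00438) and 219, 162, 130.3 and 100.4 CPM in testis RNA (-0.73 ± 0.17, adjusted p = 0.0396). None of the 143 genes is the namesake of a genic piRNA locus.

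The 34 genes that fell had a median level of 3.53 and 7.25 CPM in the heterozygotes and 1.35 and 1.44 CPM in the knockouts. *Chst1* (chromosome 2, 92599632 to 92615252), a carbohydrate sulfotransferase gene, had 31 and 81 counts in the heterozygotes and 1 and 0 in the knockouts. The ratio of scaled counts was 184 (95% interval 32.4 to 7333, from exact binomial limits on pooled counts, for counting error only). It also fell in testis RNA (11.0, 8.08, 1.88 and 2.61 CPM, -2.06 ± 0.30, adjusted p = 6.05e-04) and in enriched small RNA (-5.47, adjusted p = 0.00725). Gm10619 had 29 counts in the heterozygotes against 0 in the knockouts, and Gm10789 had 11 against 0. By the same exact limits, the lower 95% limits of their heterozygous over knockout ratios were 12.1 and 4.12. *Elfn2*, which encodes a synaptic adhesion protein, gave 10.5, 84.1, 2.08 and 5.04 CPM (-3.68 ± 0.68, adjusted p = 0.00534). There heterozygote 2 was the high library, and the value was -1.47 (adjusted p = 0.031) without it and not called without knockout 1 (-3.18, adjusted p = 0.074). Gm10619 had 6 counts in heterozygote 1 and 23 in heterozygote 2, and it fell below the filter on low counts without heterozygote 2. Without knockout 2 it lost its call (adjusted p = 0.17), and Gm10789 kept it without heterozygote 2 alone.

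*Spin1*, a histone reader gene, gave 29.2, 115, 17.0 and 17.8 CPM (-2.04 ± 0.43, adjusted p = 0.0154) and lost its call without heterozygote 2 (-0.72, adjusted p = 0.14), knockout 1 (0.12) or knockout 2 (0.19). *Cox6c*, a subunit gene of cytochrome c oxidase, gave 16.6, 19.1, 6.99 and 7.57 CPM (-1.29 ± 0.24, adjusted p = 0.00499). Within each genotype its libraries agreed closely, though the call was lost without either knockout (0.071 and 0.10). *Uqcrq*, of respiratory complex III, gave 5.89, 4.84, 2.33 and 2.0004 CPM (-1.33 ± 0.28, adjusted p = 0.0161), and *Arc* and 2010015L04Rik fell by 2.77 and 2.08 on the log2 scale. *Uqcrq*, *Arc* and 2010015L04Rik lost their calls without knockout 1 (0.069, 0.080 and 0.059), and *Uqcrq* also without heterozygote 1 (0.11) and knockout 2 (0.30), as did 2010015L04Rik without knockout 2 (0.13). With TMM on miRNA genes alone 7 genes rose and 1 fell. Of the 34 genes, 5 of 33 tested fell in enriched small RNA, where 0.319% of all features fell. In testis RNA 2 of 31 fell, where 0.906% of all features fell.

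Fragments of piRNA pathway genes gave 3 calls in 26 tested of 27 (11.5%, beside 2.3% of all features). *Tdrd6* and *Exd1* rose and *Btbd18* fell, and the last is the targeted gene itself, which is counted in that share. The list's median log2 fold change was -0.33 beside -0.05 over all features, and 19 of the 26 were below 0. Both knockouts lay below both heterozygotes at 8 of the 26 and above them at 2, beside 17.9% and 18.3% of all features. *Exd1*, which encodes an RNA-binding partner of TDRD12, gave 4.27, 6.96, 14.96 and 21.2 CPM (1.71 ± 0.30, adjusted p = 0.00320). *Piwil1* (MIWI, the main PIWI protein of pachytene piRNAs) gave 1.03, 9.28, 0.245 and 1.30 CPM (-2.50 ± 0.73, adjusted p = 0.0906), *Piwil2* (MILI) 13.7, 51.5, 31.1 and 40.2 CPM (0.14 ± 0.40) and *Mybl1* 3.83, 3.48, 2.94 and 2.87 CPM (-0.34 ± 0.37). The last 3 were named for their roles, outside the rule for named genes. The miRNA machinery list had 1 call in 12 tested of 13 (8.33%), *Tnrc6c*, a partner of Argonaute, which rose (6.78, 7.54, 17.3 and 16.5 CPM, 1.24 ± 0.23, adjusted p = 0.00534). Without knockout 2 *Tdrd6*, *Exd1*, *Clgn* and *Tnrc6c* were at 1.41, 1.44, 1.60 and 1.28 and no longer called (adjusted p = 0.13, 0.10, 0.067 and 0.056).

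Marker genes of the testis cell types yielded few small RNA reads and few calls. Late pachytene markers (13 of 18 tested) had 2 that rose, *Tdrd6* and *Clgn*, beside 1.37% of all features that rose, with a list median of 0.06. Of the 13 markers 6 had a log2 fold change below 0, down to -3.51, and 5 had an unadjusted p below 0.05 in edgeR. Their summed level was 55.7 and 130.4 CPM in the heterozygotes and 103 and 146 CPM in the knockouts, so the groups overlapped. Meiotic prophase (22 of 26), spermatid (10 of 28) and spermatogonial (14 of 21) markers had 0 calls by edgeR, with 3, 3 and 0 members at an unadjusted p below 0.05 and medians of -0.34, 0.42 and -0.10. Sertoli (12 of 20), Leydig (2 of 10), peritubular (2 of 8), leukocyte (2 of 11) and adipose (1 of 12) markers also had 0 calls, with 0, 1, 0, 0 and 0 members at an unadjusted p below 0.05. The summed level of the meiotic prophase markers was 118 and 123 CPM in the heterozygotes and 101 and 124 CPM in the knockouts, and that of the Leydig markers 10.9 and 22.8 CPM against 27.1 and 34.4 CPM. Of the 22 meiotic prophase markers 18 had a log2 fold change below 0. Both knockouts lay below both heterozygotes at 9 of the 22 and above them at 2, beside 17.9% and 18.3% of all features. The Leydig gene *Star*, of steroid synthesis, gave 10.5, 21.1, 26.1 and 32.9 CPM (0.92 ± 0.29, adjusted p = 0.125), and it passed the threshold without heterozygote 2 (1.52, adjusted p = 8.54e-04). The meiotic genes *Stag3* and *Syce3* also passed it then (1.43 and -1.38, against 0.93 and -1.02 with all 4 libraries). The part of cell composition in the results above was not tested with these small RNA reads, which are too few for most markers.

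Beside the other ages, P14 stood between an age with no call and one with many. At P10 none of 10405 features was called, and at P18 17.7% fell and 20.1% rose. The 55 loci that fell at P14 had a median level of 1.32 to 2.52 CPM in the 4 libraries of P10. At P18 it was 12031 to 14662 CPM in heterozygotes and 55.7 to 125 CPM in knockouts, and all 55 fell there too, with a median log2 fold change of -6.57. The median P18 knockout level was thus above that of the P14 knockouts, and by this median level heterozygote 2 of P14 was near the P18 heterozygotes. A test of the difference between ages found 39 features (0.375%) whose genotype effect differed between P14 and P10. Of these 34 (0.327%) were more negative at P14, 33 of them intergenic loci and the other one pi-1700016M24Rik, and 5 genes (0.0481%) were more positive. Between P14 and P18 the effect differed at 8 features (0.0769%; 1586 had an unadjusted p below 0.05), 4 more positive and 4 more negative at P14 (0.0384% each), none of them a piRNA locus, and the median difference over the 55 loci was -2.33.

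**Figure D5:**
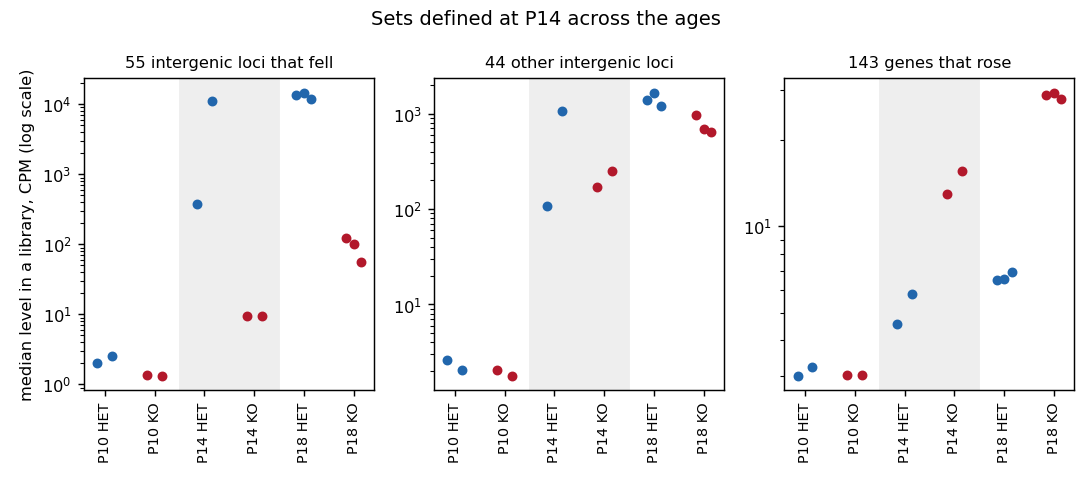
Median level per library (CPM, log scale, a separate axis per set) of 3 sets defined at P14 across the 14 small RNA libraries, 1 point per library (blue heterozygous, red knockout), P14 shaded. The 55 loci that fell are at 1.32 to 2.52 CPM at P10 and at 12031 to 14662 CPM in P18 heterozygotes, and the 143 genes that rose are at 28.0 to 29.4 CPM in P18 knockouts.

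The other sets followed their own course over age. The 44 intergenic loci not called had medians of 1.78 to 2.61 CPM at P10, and of 1190.0 to 1656 CPM in heterozygotes and 634 to 975 CPM in knockouts at P18. The genes that rose at P14 had medians of 3.00 to 3.24 CPM at P10, and of 6.48 to 6.91 CPM in heterozygotes and 28.0 to 29.4 CPM in knockouts at P18. At P18 141 of the 143 rose, where 20.1% of all tested features rose. Their median log2 fold change was 2.13 at P18 and 0.02 at P10. *Perm1* averaged 1.34 and 1.70 CPM in P10 heterozygotes and knockouts and 1.38 and 16.3 CPM at P18. Mir449a averaged 12.6 and 10.0 CPM at P10 and 207 and 14.3 CPM at P18 (log2 fold change -3.85 ± 0.52, adjusted p = 2.42e-05), and Mir34c fell at P18 (-2.25 ± 0.48, adjusted p = 0.00148). For none of the 6 miRNAs that fell at P14 did the effect differ from that at P18 or P10 by the tests of difference.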

How the data were processed

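Small RNA reads of mouse testes were handled with TopHat and featureCounts on the mouse build mm10, per the submitters' processing notes; versions, the annotation and the counting options (strand, genes that overlap, reads that match more than 1 place) are not given in the sources used here. The poly(A) testis RNA used beside it was handled with cutadapt 1.8.1, TopHat2 2.1, Subread 1.4.6-p3 and Cufflinks, per the same notes. The authors deposited whole-number read counts for each gene and piRNA locus, with no scaling, and they were analysed unchanged. Small RNA that maps to several places may be counted at more than 1 locus or at none. A column of the small RNA table whose name matches no sample title was used as an unnumbered P18 heterozygous library.

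Counts were tested in R 4.3.3 with edgeR 4.0.16 (filterByExpr by group, TMM, glmQLFit and glmQLFTest) on all 14 small RNA libraries, with 1 mean per age and genotype and contrasts for P14 and for the differences between ages. The biological coefficient of variation was 0.233. The 12 piRNA-enriched libraries (12858 features tested, 2.50 to 16.5 M counts) and the 20 testis RNA libraries (16334 features, 5.82 to 12.3 M) were fitted in the same way within their own tables. Depths were 4.03 to 20.3 M counts over the 14 libraries. The replicates were not copies of 1 library: chi-square per degree of freedom was 767 for the heterozygotes and 18.7 for the knockouts. On simulated counts of the P14 comparison the test recovered 12% of 2-fold, 66% of 4-fold, 98% of 16-fold and 98% of 64-fold changes (50 of 10405 features each), with 9 false of 146 calls. The simulation gave each feature the same fitted spread in every library and left out the difference in composition between the heterozygotes. Its recovery and its false calls may therefore not hold for the real libraries.

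Features were classed by name, and 92.9% of symbols matched the RefSeq table of GRCm38, from which coordinates and miRNA sequences were taken. Alternatives were RLE and total-count scaling, TMM on miRNA genes alone, no filter on low counts, DESeq2 1.42.0, a replicate block, a fit of the 4 P14 libraries, and leaving out each P14 library or the uncertain P18 library. Named genes were the targeted gene, those of smallest p and highest level in each class, the largest changes among other genes, and list members called or of smallest p. The members and gene lists were chosen with earlier results of these data known. ChIP-seq, ATAC-seq and purified cells were not used here.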

Additional observations from a re-analysis of the deposited data

Results flagged for a closer look

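The genotype effect differed between P14 and P18 at 8 features by edgeR's interaction test with Benjamini-Hochberg adjustment. The 5 of smallest p were Mir328, with a difference (P14 minus P18) of 3.45 on the log2 scale (adjusted p = 0.00196), and Vaultrc5, Snora61, Fam160a2 and 9630028B13Rik, with differences of 1.88, 2.56, -1.77 and -4.40 (all with an adjusted p of 0.0307). None of these 5 was called at P14. Mir328 gave 280.3, 291, 307 and 181 CPM at P14 (log2 fold change -0.23 ± 0.32), whereas at P18 it averaged 481 CPM in heterozygotes and 37.7 CPM in knockouts (-3.68 ± 0.29). Its groups overlapped at P14, and its value at P18 sets the difference. The number of such features depended on the libraries and the scaling.

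Between P14 and P10 the effect differed at 39 features. The 5 of smallest p were the intergenic piRNA loci 7-qD2-24830, 9-qC-31469, 15-qD1-17920, 12-qE-7089 and 7-qD1-16444, with differences (P14 minus P10) of -10.71, -10.04, -11.08, -9.45 and -10.79 on the log2 scale (adjusted p = 0.00168 each). At P10 these loci averaged 4.70, 10.8, 3.31, 2.97 and 2.79 CPM in heterozygotes and 4.26, 6.65, 3.00, 1.70 and 2.29 CPM in knockouts. The 5 genes with a more positive effect at P14 were *Prss23*, *Btbd2*, *Gm20300*, *Hipk2* and *Tsc22d2*. *Prss23* gave 7.95, 10.8, 96.4 and 51.0 CPM at P14, and at P10 its 2 heterozygotes were at 26.7 and 116 CPM and its knockouts at 17.7 and 18.9 CPM.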

How the results depend on the processing

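Of the 239 calls, RLE scaling kept all 239 and DESeq2 kept 223. Fitting the 4 P14 libraries alone called 0 features in either direction and 0 in every class. Over all features, total counts gave 1215 that rose, TMM on miRNA genes alone 7 that rose and 47 that fell, no filter 363 and 226, DESeq2 240 that rose, and the replicate block 257 and 150. Leaving out 1 P14 library gave 17 to 501 that rose and 50 to 547 that fell. The cause of these moves was not tested. No filter on low counts shifted the median by 0.19 on the log2 scale.

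Intergenic loci that fell numbered 43 to 93 with 1 library left out (0 to 11 rose), and 7-qB5-6255 ranged from -2.47 to 1.51, its sign turning without heterozygote 2. Genic loci that fell numbered 3 with no filter and 1 to 13 with 1 library left out, and 1 rose under total counts, no filter and the block each (0 to 6 with 1 library left out). miRNA genes that fell numbered 3 under total counts, 2 under TMM on miRNA genes and 2 to 8 with 1 library left out. Those that rose numbered 8 under total counts, 4 with no filter, 1 with the block and 0 to 26 with 1 library left out. Small noncoding RNA genes that rose numbered 2 under total counts and with no filter, and 0 to 1 rose and 0 to 1 fell with 1 library left out.

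Other genes that rose numbered 1204 under total counts, 7 under TMM on miRNA genes, 356 with no filter, 240 with DESeq2, 255 with the block and 17 to 482 with 1 library left out. Those that fell numbered 11, 1, 139, 94 with the block and 4 to 433 with 1 library left out. Effects that differed between P14 and P18 numbered 408 under total counts, 2284 under TMM on miRNA genes, 143 with no filter, 246 with DESeq2, 130 with the block, 1 without the uncertain P18 library and 1 to 1213 with 1 P14 library left out. Those between P14 and P10 numbered 106 with no filter, 89 with DESeq2 and 24 to 169 with 1 library left out. Shared numbers are not stated to pair animals: deviations of same-numbered libraries correlated at 0.289 at P14 and -0.01 at P10 across features, and the block kept 49 of the 55 intergenic calls. With 2 libraries a group, changes near 2-fold were mostly below what the test recovered on the simulated counts.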
